A study of Mus musculus with 2 samples.

Results

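The stefins described here are 4 genes of a tandem cluster on mouse chromosome 16, Stfa2, Stfa2l1, Stfa3 and BC100530, out of 26124 genes in the deposited single-cell matrices. They were chosen by name, and with earlier results of the same cells known, in which stefin genes led a pair of neutrophil-like groups of cells. Stfa2, Stfa2l1 and Stfa3 were found by their symbols. BC100530 was found by its gene identifier, ENSMUSG00000071561, because the matrices list that gene under its newer name, Cstdc5.

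Stefins are the intracellular branch of the cystatin family. They are small proteins without a secretion signal that bind papain-like cysteine proteases, among them cathepsins B, H, L and S, and block the active site, so they are held to guard the cytosol against proteases that escape from lysosomes and granules. Mice carry an expanded group of stefin A genes beside the single-copy Cstb (stefin B), and stefin A transcripts are known from neutrophils and their precursors.

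The data came from lineage-depleted bone marrow cells of C57BL/6 mice aged 8 to 10 weeks, grown in medium with GM-CSF at 20 ng/ml. The depletion antibodies included CD11b and Gr-1, so the starting cells were meant to hold few formed neutrophils. Heme-albumin at 300 µM was added on day 3 to the heme cultures and albumin alone to the control cultures, and every other part of the medium was shared. Cells of culture days 0, 3, 4, 5 and 7 were tagged with hashtag antibodies and pooled into 1 droplet library per treatment, so each treatment and day is 1 culture sample and no test between treatments or days was possible. The exposure times in the design text match days 4 and 7 after an addition on day 3 but not day 5. How long the cells of day 5 were exposed is therefore uncertain, and culture days are used as the hashtag labels give them. Those times include 0 h, which is taken here as day 3. Cells of days 0 and 3 in the heme library are thus read as not exposed to heme. All intervals below are exact 95% intervals that cover the counting of transcript molecules (unique molecular identifiers, UMIs) only, not differences between cultures. How many mice were pooled is not given in the sources used here.

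Of the barcodes with 1 hashtag, 9684 of 12050 in the control and 9941 of 14164 in the heme library passed the cell filter, and a kept cell had 11837.5 and 11045 UMIs at the median. In the heme library 3519 such barcodes were left out for having over 5000 genes, against 737 in the control library. The libraries shared 33 of the barcode sequences of kept cells, 6 of them with the same culture day. Each gene's level below is its CPM, that is, its UMIs per 1000000 UMIs of the cells named. Between the libraries, the median gene was 0.31, 0.28, 0.25 and 0.28 (log2) higher in the heme library on days 3, 4, 5 and 7, and the stefin ratios below are given without taking this off.

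In the GRCm38 annotation, Stfa2l1 lies on the plus strand at chr16:36156811-36161953, and BC100530, Stfa2 and Stfa3 lie on the minus strand at chr16:36359382-36367748, chr16:36403992-36408457 and chr16:36450537-36455392. Each has 1 coding transcript of 3 exons, of 419, 619, 471 and 412 bases in the same order. The cluster of 10 stefin genes spans 335 kb. The 300-base promoter windows of the 4 genes were 72.3% to 90.5% identical to each other, the closest pair being Stfa2 and Stfa2l1. The last 120 bases before each RefSeq transcription start (GRCm38.p6) are shown because these genes rose together in culture. The RefSeq starts of Stfa2 and BC100530 differ from the gene models above, so the whole stretch of BC100530 and most of that of Stfa2 lie inside the spans given there. The capitals mark the 3 longest runs found in all 4 stretches, which are CACACTCATT, AGAGGAGGAG and ACCTTTAAAACC. The sequences are written in the direction of transcription.
Stfa2l1 (chr16:36156691-36156810, plus strand): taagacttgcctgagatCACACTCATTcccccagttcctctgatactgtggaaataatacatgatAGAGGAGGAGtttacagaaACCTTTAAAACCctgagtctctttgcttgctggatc
Stfa2 (chr16:36408364-36408483, minus strand): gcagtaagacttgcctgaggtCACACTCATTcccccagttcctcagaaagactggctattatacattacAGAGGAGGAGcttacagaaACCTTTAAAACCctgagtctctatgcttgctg
Stfa3 (chr16:36455393-36455512, minus strand): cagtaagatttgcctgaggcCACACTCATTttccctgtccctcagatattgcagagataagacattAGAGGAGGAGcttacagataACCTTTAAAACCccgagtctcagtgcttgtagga
BC100530 (chr16:36367571-36367690, minus strand): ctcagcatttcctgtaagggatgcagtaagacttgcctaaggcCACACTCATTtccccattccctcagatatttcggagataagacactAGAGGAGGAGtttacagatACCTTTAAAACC

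The run ACCTTTAAAACC began 36 bases before the start of Stfa2l1, 34 before Stfa3, 32 before Stfa2 and 12 before BC100530. On either strand it was found in 11 of 32851 promoter windows of the same length (0.0335%), which include the 4 genes and 3 of the 5 other stefins with a window in the table. CACACTCATT was found in 37 windows and AGAGGAGGAG in 337 (0.113% and 1.03%). A match of letters is a description and not a binding site. Reads can fall on stretches that these genes share. Of the 90-base windows of each coding transcript, 16.6% of those of BC100530, 2.42% of Stfa2l1, 2.09% of Stfa2 and none of Stfa3 (0 of 323) were identical to a stretch of another stefin transcript, so the split of counts among them is uncertain, most of all for BC100530. BC100530 also overlaps a gene on the opposite strand, Gm15845, and how strand was treated in counting is not given in the sources used here.

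All 4 stefins were near the floor of detection on day 0, rose steeply between days 3 and 4, peaked on day 5 and were lower again on day 7 in both libraries. Stfa2 stood at 0.162, 7.72, 116, 217 and 17.8 CPM on days 0, 3, 4, 5 and 7 of the control library and at 0.379, 4.29, 45.2, 126 and 40.4 CPM on the same days of the heme library. Stfa2l1 stood at 2.59, 12.7, 104, 128 and 12.3 CPM in the control and at 1.14, 10.5, 74.3, 122.6 and 23.7 CPM in the heme library. Both genes were highest on day 5 in either library. Stfa3 stood at 0.162, 1.46, 48.1, 133 and 16.8 CPM in the control and at 0.455, 1.25, 24.6, 96.3 and 24.1 CPM in the heme library. BC100530 stood at 2.42, 27.0, 536, 877 and 62.7 CPM in the control and at 4.02, 28.5, 326, 571 and 121 CPM in the heme library. The orders were alike, with control day 5 first for every one of the 4 genes and the day 0 cultures last.

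**Figure D1:**
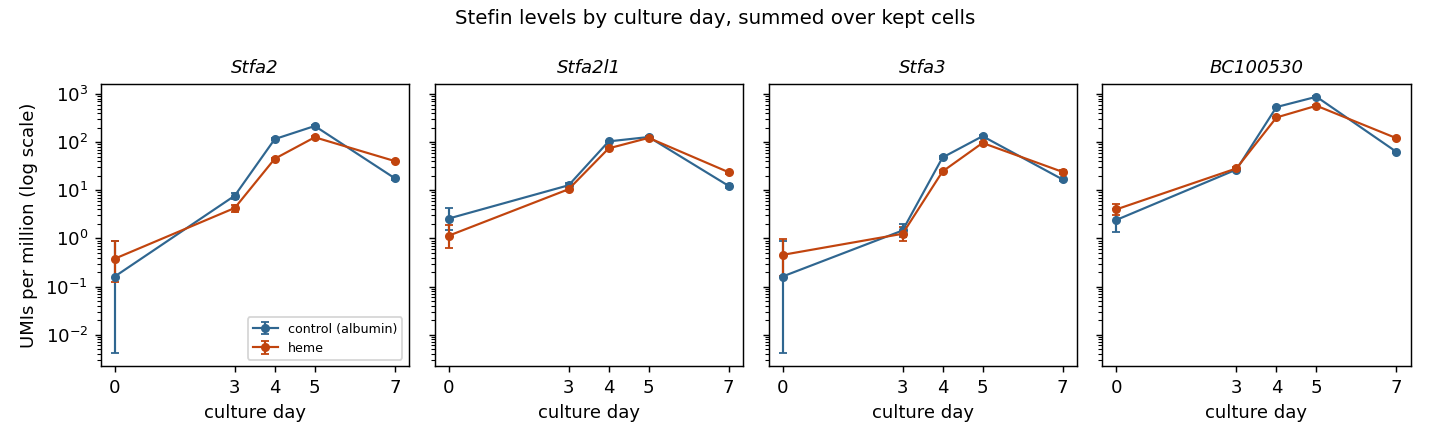
Level of each stefin (CPM of kept cells, log axis) against culture day, with the control library in blue and the heme library in red. Bars are exact 95% Poisson intervals. Every gene is highest on day 5, where Stfa2 reaches 217 CPM in the control and 126 CPM in the heme library.

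Summed over the 4 genes, the levels on days 0, 3, 4, 5 and 7 were 5.33, 48.9, 803, 1355 and 110 CPM in the control and 5.99, 44.6, 470, 916 and 209 CPM in the heme library. In the order of these 10 levels, the neighbours whose counting intervals overlapped were the day 3 cultures of the 2 libraries and their day 0 cultures. For single genes more neighbours overlapped, among them control and heme day 5 for Stfa2l1, and heme days 4 and 7 for Stfa2 and Stfa3. From day 3 to day 4 all 4 genes were past 2-fold higher in either library, where 4.31% of genes in the control and 5% in the heme library were. The step was 32.9-fold (24.3 to 45.7) for Stfa3 and 8.15-fold (7.31 to 9.11) for Stfa2l1 in the control library, and 19.7-fold (14.4 to 27.8) and 7.06-fold (6.29 to 7.93) in the heme library. From day 4 to day 5 the summed level rose 1.69-fold (1.66 to 1.72) in the control and 1.95-fold (1.91 to 1.99) in the heme library. Past 2-fold were 1 of 4 in the control (Stfa3 at 2.77), beside 5.49% of genes, and 2 of 4 in the heme library (Stfa2 at 2.79 and Stfa3 at 3.91), beside 4.22%. From day 5 to day 7 all 4 were past 2-fold lower, beside 4.26% of genes in the control and 4.5% in the heme library. The summed level fell 12.4-fold (12.0 to 12.8) in the control and 4.39-fold (4.26 to 4.52) in the heme library. Because the members were chosen with such levels in view, these counts describe them and support nothing.

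The mix of the 4 genes also shifted with time. Stfa2l1 gave 26.0% of the summed UMIs on day 3 and 9.44% on day 5 of the control library, and 23.6% and 13.4% in the heme library. Stfa3 went the other way, from 2.99% on day 3 to 15.3% on day 7 in the control and from 2.80% to 11.5% in the heme library.

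Among genes outside the stefin family at a mean of 10 CPM or more (7889 genes), the 5 whose log2(CPM + 1) followed the summed stefins most closely over the 10 cultures were F2rl2 (a protease-activated receptor, Pearson r = 0.96), Ggh (gamma-glutamyl hydrolase, r = 0.95), Hcar2 (the niacin receptor, r = 0.94), Lpcat2 (a lysophospholipid acyltransferase, r = 0.94) and Ier3 (an immediate early gene, r = 0.94). The 10 points share 2 libraries and are not independent. F2rl2 ranged from 8.56 to 62.9 CPM, a much narrower span than that of the stefins.

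The neutrophil stage was read from 3 measures. Camp (cathelicidin) is a secondary granule gene of immature neutrophils, S100a8 and S100a9 encode the calprotectin subunits that abound in neutrophils of every later stage, and Mmp8 (neutrophil collagenase) is a granule gene of later neutrophils. A cell was called Camp high with Camp at 1% or more of its UMIs, Camp intermediate at 0.1% to 1%, and Camp low under 0.1%, and Camp-low cells were split by whether S100a8 and S100a9 together made up 2% of UMIs. These are ranges of a continuous share and not cell types. Other granule genes also differed between the ranges. On days 4 to 7 of the control library Ltf (lactoferrin) was at 10897, 6881, 976 and 32.1 CPM in the Camp-high, Camp-intermediate, Camp-low S100a8/9-high and Camp-low S100a8/9-low cells, and Mmp9 (gelatinase B) at 221, 381, 464 and 18.1 CPM. Elane (neutrophil elastase), a primary granule gene of progenitors, was at 185, 710.5, 1442 and 103 CPM, and Mmp8 at 426, 746, 885 and 259.5 CPM, so the Camp-low S100a8/9-high cells held the most of a progenitor gene and of a late gene alike. In the heme library Mmp8 was at 724, 1127, 2136 and 844 CPM in the same order of ranges. There the cells low in both held more of it than the Camp-high cells, so Mmp8 was not confined to S100a8/9-high cells. Elane in the heme library was at 62.7, 144, 176 and 46.5 CPM in these ranges. The same range thus held unlike levels of stage genes in the 2 libraries.

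Stefin UMIs were found mostly outside the cells low in both Camp and S100a8/9, and more than 1 Camp range carried them. On days 4 to 7 of the control library, Camp-high cells held 37.7% (37.3 to 38.1) of the stefin UMIs in 14.3% of cells, Camp-intermediate cells 37.7% (37.4 to 38.1) in 11.1%, and Camp-low S100a8/9-high cells 23.2% (22.9 to 23.6) in 14.6%. The remaining 60.1% of cells, low in both, held 1.31% (1.22 to 1.40). In the heme library the shares were 10.2% (9.86 to 10.5), 36.2% (35.7 to 36.7), 52.4% (51.9 to 52.9) and 1.27% (1.16 to 1.39) in 15.0%, 19.6%, 25.8% and 39.6% of cells. The heme library thus held more of its stefin UMIs in Camp-low S100a8/9-high cells than in the other ranges, and the control library in the Camp-high and Camp-intermediate cells. With the Camp limits lowered to 0.05% and 0.5%, 56.7% of the stefin UMIs of the heme library fell in Camp-intermediate or Camp-high cells, in place of 46.4%, and with limits of 0.2% and 2%, 35.2% did.

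Within each range the level differed between days. In the control library the summed stefins stood at 994 CPM in Camp-high, 2201 CPM in Camp-intermediate and 1414 CPM in Camp-low S100a8/9-high cells on day 4. The same ranges stood at 6716, 5044 and 1825 CPM on day 5. Day 7 gave 14819.5, 6264 and 3368 CPM, from 7, 30 and 93 cells. The Camp-low S100a8/9-low cells stayed at 8.22, 7.97 and 16.3 CPM. So the level was higher on day 5 than on day 4 in each of the other 3 ranges, and the lower whole-culture level on day 7 came with few S100a8/9-rich cells, 126 of 2715 with 2% or more of their UMIs from S100a8 and S100a9, against 1316 of 2367 on day 5. In sums over a whole culture, fewer expressing cells and less RNA per cell cannot be told apart.

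**Figure D2:**
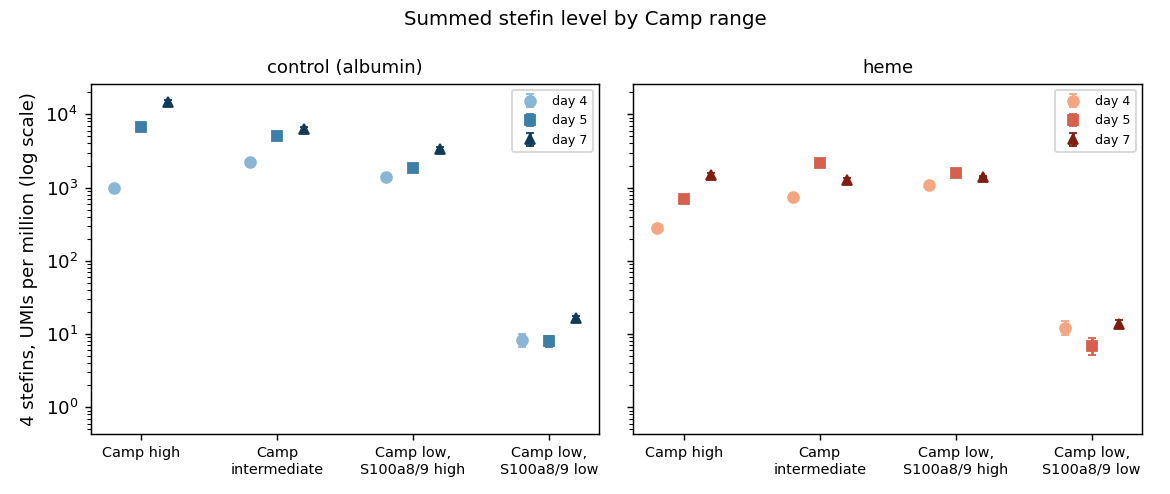
Summed level of the 4 stefins (CPM, log axis) in cells of each Camp range on days 4, 5 and 7, control library left and heme library right. Bars are exact 95% Poisson intervals. The 3 ranges on the left of each panel lie above 280 CPM on every day, and the Camp-low S100a8/9-low cells lie under 17 CPM.

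The order by Mmp8 differed between the libraries. Among the S100a8/9-high cells (all those with 2% or more, whatever their Camp) of days 4 to 7 in the control library, cells with no Mmp8 UMI had 3020 CPM of the stefins, cells with 1 to 2 UMIs 2208, cells with 3 to 9 UMIs 1545 and cells with 10 or more 1377 CPM. In the heme library the same groups had 1056, 1587, 1154 and 650 CPM. The level thus fell with Mmp8 in the control library, while in the heme library it was highest with 1 to 2 UMIs. On day 7 the cells with 10 or more Mmp8 UMIs had the highest level in both libraries, 9673 CPM in 13 control cells and 2330 CPM in 114 heme cells. In the control library of days 4 to 7 the median depth was 9928 UMIs in cells without an Mmp8 UMI and 6029 in cells with 10 or more, and its part in this order was not tested.

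The stefins were concentrated in a small part of the S100a8/9-high cells. Over days 4 to 7, 66.1% of the S100a8/9-high cells of the control library and 68.4% of those of the heme library had no UMI of any of the 4 genes, and 4.92% and 2.56% had 100 or more. The most in 1 cell was 1364 UMIs in the control and 784 in the heme library, and the highest share of a cell's UMIs was 9.82% and 6.08%. The top 10% of these cells by each gene's own UMIs held 99.7% of the BC100530 UMIs, 99.8% of Stfa3, 97.3% of Stfa2 and 89.9% of Stfa2l1 in the control library, and 99.7%, 100%, 99.01% and 86.3% in the heme library. Among genes with 1000 or more UMIs in these cells, the median gene had 47.4% of its UMIs in its top 10% of cells in the control library (2624 genes) and 47.5% in the heme library (4225 genes), Camp had 47.6% and 49.7%, and Mmp8 50.8% and 41.7%. BC100530 ranked 8, Stfa3 7, Stfa2 11 and Stfa2l1 23 of the 2624 genes, and 6, 1, 7 and 17 of the 4225 genes. The rank of 1 in the heme library is shared by each gene at 100%. Olfm4, a granule protein known to mark only part of the neutrophils, was also at 100% in both libraries, and Elane was at 97.3% and 79.6%.

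**Figure D3:**
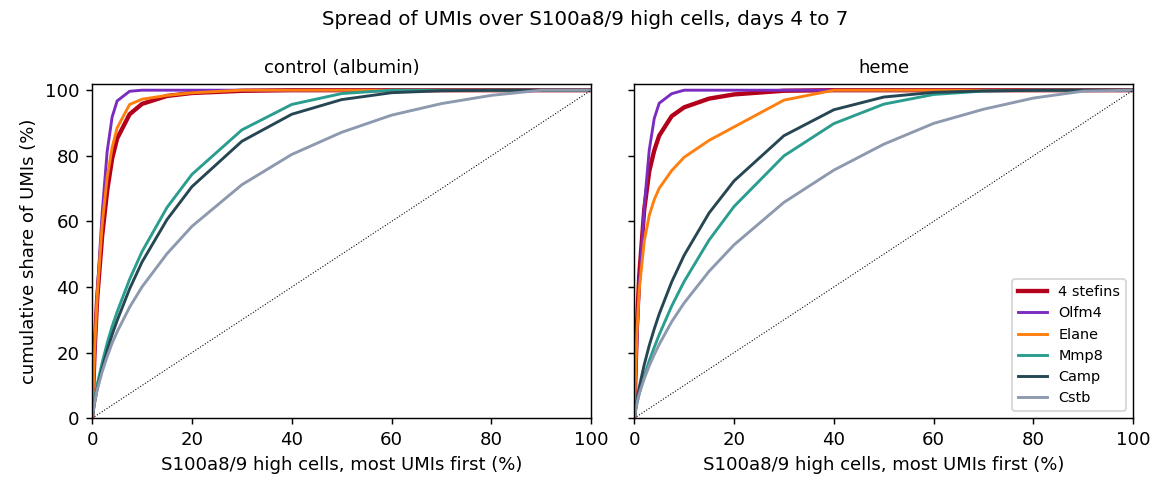
Cumulative share of each gene's UMIs (%) over the S100a8/9-high cells of days 4 to 7, ordered from the cell with most UMIs of that gene to the cell with fewest, for the 4 stefins summed, Olfm4, Elane, Mmp8, Camp and Cstb. The dotted line is an even spread. The stefin curve rises at the left edge like that of Olfm4, reaching 95.8% at 10% of the control cells, whereas Camp reaches 47.6% there.

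Cells with 0.1% or more of their UMIs from the 4 genes are called stefin-rich below. This is a limit on a score and not a type. In the control library 112 of the 2866 S100a8/9-high cells lay between 0.05% and 0.1% and 97 between 0.1% and 0.2%, and in the heme library 131 and 99 of 3860. The cells next to the limit held 0.1003% and 0.0996% of their UMIs in the control and 0.102% and 0.0998% in the heme library. Stefin-rich cells made up 13.2% (12.0 to 14.5) of the S100a8/9-high cells of the control and 9.25% (8.35 to 10.2) of those of the heme library, and held 95.9% and 92.1% of all stefin UMIs. The other S100a8/9-high cells stood at 82.9 and 77.8 CPM. The median depth of stefin-rich and other cells was 9325.5 and 6476.5 UMIs in the control and 10032 and 7385 in the heme library, and the part of depth in this split was not tested. After each cell was thinned to 2000 UMIs, with 168 control and 134 heme S100a8/9-high cells left out as shallower, 22.3% (20.7 to 23.9) of the S100a8/9-high cells of the control and 18.8% (17.5 to 20.1) of the heme library had a stefin UMI, against 2.17% (1.76 to 2.66) and 1.80% (1.31 to 2.399) of the Camp-low S100a8/9-low cells. Without thinning these were 33.9% and 31.6% against 10.0% and 10.5%.

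Cells of other types show how many stefin UMIs may be stray. Cells with 4 or more of 6 dendritic markers (Ccr7, Fscn1, Ccl22, Il4i1, Cacnb3, Ccl5), a type not known for these genes, had a stefin UMI in 9.88% of 729 control cells (median depth 12334 UMIs) and in 11.8% of 187 heme cells (16882 UMIs) on days 4 to 7, at levels of 10.0 and 8.32 CPM. Cells with as many macrophage markers stood at 2.23 and 6.94 CPM. The Camp-low S100a8/9-low cells, at 12.5 and 11.9 CPM, lay somewhat above these. Of such control cells on day 7, 13 of 2585 were past the limit of 0.1% for stefin-rich cells. The source of the stefin UMIs in these cells was not tested. Over all control cells of days 4 to 7 under the S100a8/9 limit, 1% of the cells held 46.8% of their stefin UMIs, with up to 41 in 1 cell. The few erythroid-marker cells of those days, 21 and 27, had 280 and 150 CPM of stefins together with 39477 and 41276 CPM of S100a8, and the basophil- or mast-cell-marker cells, 39 and 43, had 3.87 and 78.5 CPM with 715 and 6017 CPM of S100a8.

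Stefin-rich cells were found in each of the Camp ranges with high S100a8/9. In the control library 7.07% of Camp-high, 13.2% of Camp-intermediate and 10.3% of Camp-low S100a8/9-high cells were stefin-rich on day 4, and 21.6%, 21.8% and 9.39% on day 5. Some stage genes kept 1 direction between stefin-rich and other S100a8/9-high cells over days 4, 5 and 7, and others did not. Ngp was higher in the stefin-rich cells of the control library on each of these days (ratios of 1.09, 1.77 and 2.75). Mmp9 was lower there each time (0.730, 0.436 and 0.821), and neither gene kept 1 direction in the heme library. In the control library Camp was at 9311 against 12976 CPM on day 4, at 8507 against 5804 CPM on day 5 and at 3191 against 1885.5 CPM on day 7. Elane there was at 1416 against 878, 344 against 490 and 109 against 249.3 CPM on the same days. So in the control library Camp went from lower to higher and Elane from higher to lower in the stefin-rich cells. Camp was lower in the stefin-rich cells of the heme library on each day, at 6063 against 10065, 1528 against 1603 and 3771 against 4700 CPM. Elane turned in the heme library as well, at 241 against 112, 78.4 against 127 and 89.7 against 274 CPM. Mmp8 was at 358 against 632, 315 against 917 and 590 against 591 CPM in the control and at 474 against 972, 1061 against 2811 and 1452 against 888 CPM in the heme library. It was lower in stefin-rich cells on days 4 and 5 of both libraries, and higher on day 7 of the heme library. Retnlg, a gene of late neutrophils, was at 20.4 against 199.8, 71.9 against 131 and 112 against 76.4 CPM in the heme library. Over days 4 to 7 together, 1 of the 16 stage genes listed was past 2-fold lower in each library, Mmp8 in the control and Retnlg in the heme library, where 3.94% and 4.15% of genes were. Of stefin-rich cells 6.61% (4.33 to 9.61) had 10 or more Olfm4 UMIs in the control and 3.64% (1.95 to 6.15) in the heme library, and of the other S100a8/9-high cells 3.66% (2.95 to 4.47) and 4.48% (3.82 to 5.22), intervals that overlap in both. The limit of 10 UMIs takes no account of depth, which differed between these groups, and overlap does not show that they are alike. Olfm4 was at 150.1 CPM in both groups of the control library. In the heme library it was at 131 CPM in stefin-rich and 218 CPM in other cells. Olfm4 was picked for this after its spread had been seen.

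The 4 genes were often found in the same cells. Stfa3 shared none of its 323 windows of 90 bases with another stefin, and the other 3 genes shared some. The part of reads on shared stretches in this was not tested. Of 192 control cells with 10 or more Stfa2 UMIs on days 4 to 7, 84.9% had a Stfa3 UMI, 81.8% a Stfa2l1 UMI and 76.6% a BC100530 UMI, where 5.56%, 10.6% and 8.76% of all cells did. In the heme library 78.8%, 83.9% and 73.0% of 137 such cells did, where 5.30%, 14.6% and 9.73% of all cells did. All cells here include those low in S100a8/9, which held few stefin UMIs, and the part of cell kind in this contrast was not tested. Of 181 control cells with 10 or more Stfa2l1 UMIs 64.6% had a Stfa3 UMI, the lowest share among the pairs of the control library.

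Most other stefins of the cluster were higher in the same cells. Between stefin-rich and other S100a8/9-high cells, 0.798% of genes were past 2-fold higher in the stefin-rich cells of the control library and 1.37% in those of the heme library. Of the 7 other stefins listed, 5 were past 2-fold higher in both libraries. Stfa1 was at 1483 against 36.7 CPM in the control, a ratio of 40.4 (37.4 to 43.6), and at a ratio of 40.8 (36.6 to 45.6) in the heme library. The control value comes from days 4 and 5, with ratios of 41.4 and 113, since on day 7 Stfa1 was at 155 CPM in stefin-rich and 159 CPM in other cells. Cstdc4 (Gm5483) was 33.8-fold (32.8 to 34.7) and 16.02-fold (15.7 to 16.3) higher. Csta3 (Gm5416), which shares no 90-base window with another stefin, was 68.7-fold (37.3 to 141) and 66.9-fold (32.1 to 161) higher. Csta2 (2010005H15Rik) was 14.5-fold (13.1 to 16.1) and 10.3-fold (9.47 to 11.3) higher, and Cstdc6 (BC117090), with 42 and 24 UMIs in all, 24.9-fold (10.9 to 66.3) and 15.3-fold (6.17 to 41.3). Of the 90-base windows of Stfa1, Cstdc4, Csta2 and Cstdc6, 6.48%, 15.4%, 7.89% and 16.4% were shared with another stefin. The part of such reads in these ratios was not tested. Csta1, at the edge of the cluster, had 0 UMIs in these cells. Cstb, on chromosome 10, was at 508 against 703 CPM in the control and at 453 against 528 CPM in the heme library.

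Most protein-coding genes outside the family within 500 kb of the cluster were not past 2-fold. Of 12 such genes with 20 or more UMIs in the control library, the ratios of stefin-rich to other cells ran from 0.597 to 2.13 with a median of 0.838, and of 14 in the heme library from 0.328 to 2.34 with a median of 1.04. Fam162a, a mitochondrial protein gene whose nearer end lies 85.2 kb before Stfa2l1, was past 2-fold higher in both, at 142 against 66.8 CPM in the control and 148 against 63.3 CPM in the heme library. By day its ratio was 2.49 and 2.98 on day 4 but 1.54 and 1.94 on day 5 in the control and heme libraries, so it was not past 2-fold on day 5. Ccdc58, the next gene towards the cluster, had ratios of 1.32 (0.991 to 1.73) and 1.29 (0.899 to 1.81). By day its ratios were 1.71 (1.18 to 2.44) and 1.93 (1.17 to 3.05) on day 4 and 1.13 and 1.05 on day 5, the latter with intervals across 1. On the far side Cd86, a costimulatory receptor gene, had 9 and 75 UMIs in the stefin-rich and other control cells and ratios of 0.597 (0.263 to 1.19) and 0.328 (0.0660 to 0.997) in the control and heme libraries. These neighbours were taken by position after the stefin-rich cells had been seen.

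**Figure D4:**
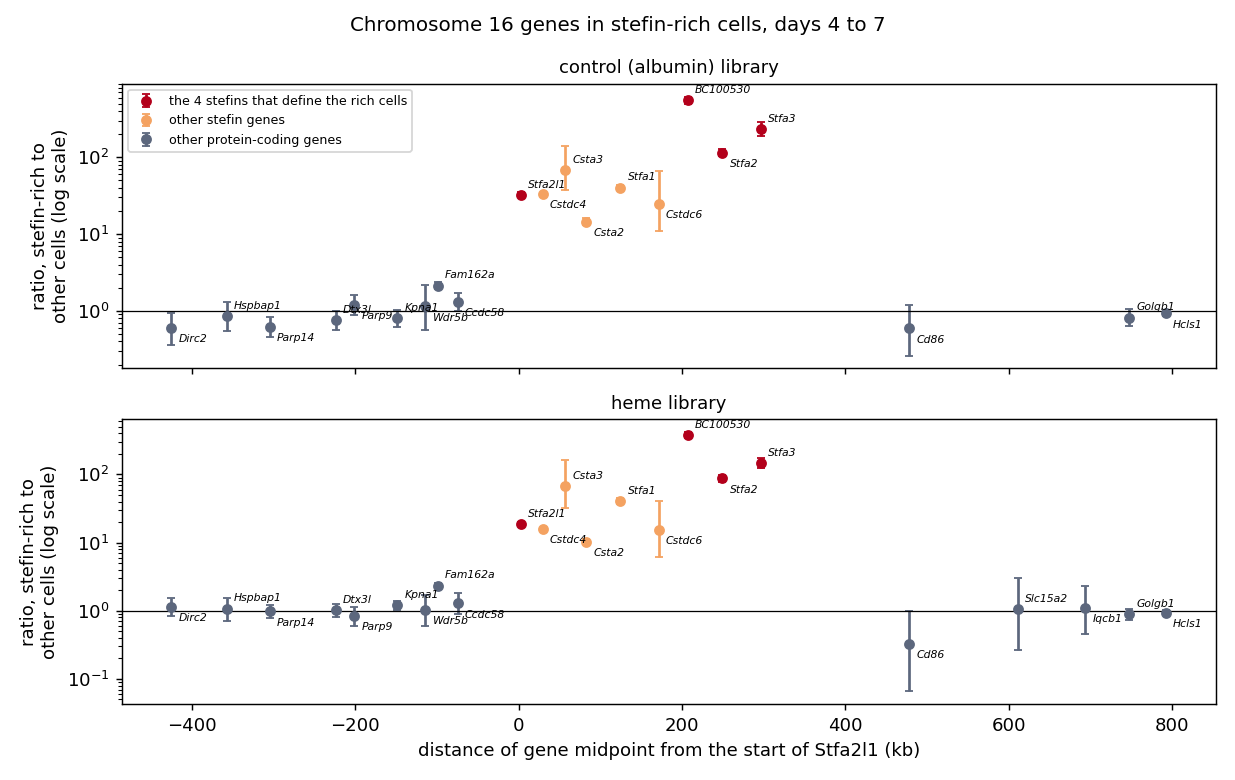
Ratio of CPM in stefin-rich to other S100a8/9-high cells (log axis, days 4 to 7) for protein-coding genes with 20 or more UMIs within 500 kb of the stefin cluster, against the distance of the gene's midpoint from the start of Stfa2l1 in kb, control library above and heme library below. Bars are exact 95% intervals. The 4 stefins in red define the groups. The 5 other measured stefins in orange lie between 10.3 and 68.7, and the genes outside the family in grey between 0.328 and 2.34.

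Csta2 and Cstdc4 differed from the 4 genes in that they were also found outside S100a8/9-high cells. In the Camp-low S100a8/9-low cells of days 4 to 7, where the 4 stefins summed were at 12.5 and 11.9 CPM, Cstdc4 was at 289.6 CPM in the control and 143 CPM in the heme library and Csta2 at 112 and 22.2 CPM. In the whole control culture of day 7 Cstdc4 was at 449.6 and Csta2 at 132 CPM.

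Whether heme exposure changed the stefins was asked day by day, first over whole cultures. On day 3, taken as unexposed, 0 of 4 genes were past 2-fold either way. Of all genes 7.95% were past 2-fold higher and 0.539% lower. The summed ratio of heme to control was 0.911 (0.847 to 0.981) on that day. On day 4 all 4 were lower in the heme library and 1 was past 2-fold, where 2.98% of genes were past 2-fold lower and 9.64% higher. That gene was Stfa2, at a ratio of 0.391 (0.366 to 0.418), while Stfa3, BC100530 and Stfa2l1 had ratios of 0.512 (0.466 to 0.563), 0.608 (0.592 to 0.624) and 0.717 (0.677 to 0.760). On day 5, 0 of 4 were past 2-fold, where 3.75% of genes were past 2-fold lower and 9.27% higher, and the ratios were 0.583 for Stfa2, 0.651 for BC100530, 0.724 for Stfa3 and 0.959 (0.910 to 1.01) for Stfa2l1. The summed ratio was 0.585 (0.572 to 0.598) on day 4 and 0.676 (0.664 to 0.689) on day 5. With every barcode of 1 hashtag kept, the day 5 log2 ratio moved from -0.56 to -1.39, past 2-fold. The day 3 ratio also moved further below 1 with these barcodes, as given in the section on processing. How near the libraries lay on day 3 thus depends on the cell filter. Divided by the day 3 ratio, the day 5 log2 ratios of Stfa2 and Stfa2l1 turned to 0.07 and 0.21.

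On day 7 the order of the libraries turned. All 4 genes were higher in the heme culture and 1 was past 2-fold, Stfa2 at a ratio of 2.27 (2.06 to 2.52), where 14.9% of genes were past 2-fold higher and 7.67% lower. BC100530 and Stfa2l1 were both at 1.92, with intervals of 1.82 to 2.03 and 1.70 to 2.18, and Stfa3 was at 1.43 (1.28 to 1.61). With every barcode of 1 hashtag kept, Stfa2 was no longer past 2-fold (log2 0.47 in place of 1.19) and Stfa3 turned lower in the heme library (log2 -0.25 in place of 0.52). S100a8/9-high cells were 426 of 2012 in the heme and 126 of 2715 in the control culture on that day.

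Within the S100a8/9-high cells the stefins were lower in the heme library on every day from 3 to 7. The difference on day 3 is one between libraries taken as unexposed. The summed level was 95.1, 1425, 3936 and 4778 CPM in the control library and 71.8, 621, 1674 and 1369 CPM in the heme library on days 3, 4, 5 and 7. The ratios were 0.756 (0.7005 to 0.815), 0.436 (0.426 to 0.446), 0.425 (0.418 to 0.433) and 0.286 (0.274 to 0.299), so the day 7 ratio lay on the other side of 1 from that of the whole culture. On day 3, the day of the addition, 1 of 4 genes was past 2-fold lower (Stfa2, 0.466), where 1.17% of genes were. On days 4 and 5, 3 of 4 were past 2-fold lower, where 0.887% and 1.87% of genes were, and 4 of 4 were on day 7, where 4.76% were. Stfa2l1 was the gene not past 2-fold on days 4 and 5, at 0.536 (0.506 to 0.568) and 0.605 (0.573 to 0.638). The median gene was 0.45, 0.34 and 0.25 (log2) higher in the heme library in these cells on days 4, 5 and 7. With S100a8 and S100a9 at 5% or more as the limit, the day 7 log2 ratio was -2.40 in place of -1.80.

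**Figure D5:**
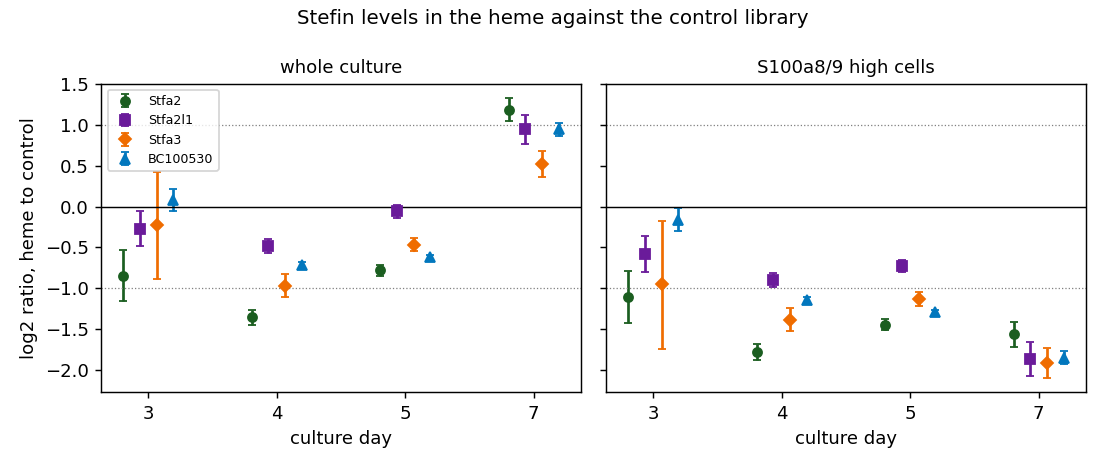
Log2 ratio of heme to control CPM for each stefin by culture day, over whole cultures on the left and over S100a8/9-high cells on the right, with exact 95% intervals for counting error and dotted lines at 2-fold. On day 7 the 4 genes lie between 0.52 and 1.19 in whole cultures and between -1.91 and -1.56 in S100a8/9-high cells.

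Over S100a8/9-high cells of days 4 to 7, both the share of stefin-rich cells and their level were lower in the heme library. Stefin-rich cells were 9.48% (8.01 to 11.1) of the S100a8/9-high cells in the control and 5.31% (4.38 to 6.37) in the heme library on day 4. The shares were 15.4% (13.5 to 17.5) against 12.7% (11.0 to 14.6) on day 5, then 31.7% (23.7 to 40.6) against 16.9% (13.5 to 20.8) on day 7. The day 5 intervals overlap, and those of days 4 and 7 do not. In the Camp-low S100a8/9-high cells of day 5 the share was higher in the heme library, at 12.0% against 9.39%. The level in stefin-rich cells was 11010.4, 17277 and 12417 CPM in the control and 7120.1, 9053 and 8705 CPM in the heme library on days 4, 5 and 7. On day 3 it was 2962 CPM in 19 control and 3360 CPM in 18 heme cells. The other S100a8/9-high cells of days 4, 5 and 7 stood at 79.7, 87.5 and 104 CPM in the control and at 69.1, 96.5 and 78.5 CPM in the heme library. Since 40 control cells and 72 heme cells give most of the day 7 values, the counting intervals above leave out the spread between cells. Without the 1% of S100a8/9-high cells with most stefin UMIs in each library, the log2 ratios were -1.35, -1.50 and -2.04 on days 4, 5 and 7.

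By Camp range, the ratio was lowest in Camp-high cells on each day from 4 to 7. A range need not hold the same mix of stages in both libraries, and the part of this was not tested. Heme to control ratios of the summed stefins were 0.285 (0.272 to 0.298) in Camp-high, 0.341 (0.330 to 0.352) in Camp-intermediate and 0.757 (0.726 to 0.790) in Camp-low S100a8/9-high cells on day 4. They were 0.104 (0.0923 to 0.117), 0.435 (0.421 to 0.449) and 0.854 (0.830 to 0.879) on day 5. For day 7 they came to 0.1004 (0.0913 to 0.111), 0.203 (0.186 to 0.221) and 0.411 (0.387 to 0.437). The Camp-high ratios rest on 58 heme cells on day 5, 4 of them stefin-rich, and on 7 control cells on day 7. On day 3, taken as unexposed, the order was the same, at 0.407, 0.867 and 2.11. These came from 10 and 11, 5 and 4, and 4 and 3 stefin-rich cells. Elane and Prtn3 (proteinase 3), both primary granule genes, were also lower in the heme library on days 3 to 5. Elane was at 3883, 944, 457 and 196 CPM in control and at 1571, 122, 119 and 247 CPM in heme S100a8/9-high cells on days 3, 4, 5 and 7. It was thus lower in the heme library on day 3 too, before exposure as read here. The part of these genes' cells in the stefin ratios was not tested.

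The other stefins were lower in the heme S100a8/9-high cells of days 4 to 7 too. Of 6 measured with 20 or more UMIs in whole cultures, 3 were past 2-fold lower in the heme library on day 4 (Stfa1 at 0.280, Csta2 at 0.449 and Cstdc6 at 0.415). On day 5, 1 of 6 was (Csta3 at 0.231), and on day 7, 1 of 4 (Csta2 at 0.252). Of all genes 2.98%, 3.75% and 7.67% were past 2-fold lower on these days. None of these stefins was past 2-fold higher (0 on each day), where 9.64%, 9.27% and 14.9% of genes were. Cstdc4 was not lower in the whole heme cultures of days 4 and 5, at 729 against 721 and 1256 against 1028 CPM in the control. In S100a8/9-high cells 2 of 6, 3 of 6 and 4 of 4 were past 2-fold lower on days 4, 5 and 7, where 0.887%, 1.87% and 4.76% of genes were. Stfa1 was at 278 CPM in the control and 58.2 CPM in the heme library on day 4, then at 289.7 and 107 CPM on day 5 and 158 and 21.9 CPM on day 7. Cstdc4 was at 1191 and 952, 2616 and 2228, and 3350.3 and 1214 CPM on the same days, past 2-fold on day 7 only. Cstb was at 438 and 404, 1023 and 748, and 1042 and 511 CPM, also past 2-fold on day 7 only.

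The cysteine cathepsins are the family of proteases that stefins bind. Of the 10 cysteine cathepsins listed, 9 had 20 or more UMIs in whole cultures, and 1, 0 and 1 of them were past 2-fold on days 4, 5 and 7, shares no larger than those of all genes given above for both directions together. They were Ctsk (cathepsin K) lower at 0.449 on day 4 and Ctsf (cathepsin F) higher at 2.36 on day 7. The median log2 ratio of the 9 was -0.29, 0.10 and 0.25. Ctsb (cathepsin B) was at 280.1, 475 and 556 CPM in the control and 358, 543 and 777 CPM in the heme library on days 4, 5 and 7. In S100a8/9-high cells 0 of 7 were past 2-fold on days 4 and 5. On day 7, 2 of 7 were lower, Ctss (cathepsin S) at 264 and 64.2 CPM and Ctsz (cathepsin X) at 441 and 208 CPM, and 6 of 7 were below 1 with a median log2 ratio of -0.90. Of the 10 secreted cystatins listed, 3 were measured. Cst3 (cystatin C) was at 2931, 7962 and 11856 CPM in the control and 1237, 2395 and 1195 CPM in the heme library on days 4, 5 and 7 of whole cultures, past 2-fold lower each time. Cst7 (cystatin F) was at 50.04, 30.4 and 6.93 CPM in the control and 71.3, 37.2 and 15.5 CPM in the heme library, past 2-fold higher on day 7. Cst6 was under 2 CPM in each of these cultures.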

How the data were processed

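Per the labels and the methods, the authors made the deposited files from droplet libraries with Cell Ranger 4.0.0 on GRCm38.p6 and assigned hashtags with Seurat 3.2.3. The matrix headers name Cell Ranger 5.0.0. The deposited counts are UMIs per gene and barcode. Whether they were counted by strand, and how reads on several genes were treated, is not given in the sources used here.

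Barcodes with 1 hashtag were kept with 500 to 5000 genes, at most 15% mitochondrial and at most 30% ribosomal UMIs. Barcodes with several hashtags were taken as doublets and left out, and no further doublet caller was run. Totals per culture were 6189203 to 34647365 UMIs. UMIs were summed per library and culture day and divided by the total (CPM). With 1 library per treatment no test was run. "Past 2-fold" was given for genes with 20 or more UMIs over both cultures, and 95% intervals are exact Poisson or Clopper-Pearson intervals that cover counting error only. Named genes were the 4 stefins, the other stefins, the secreted cystatins and the cysteine cathepsins with 20 or more UMIs, 16 neutrophil stage genes and the 5 genes most like the stefins over the 10 cultures. The members and lists were chosen with earlier results of these data known. Scripts used Python 3.11.15, numpy 2.4.6, scipy 1.17.1 and pandas 2.3.3, and alternative scaling factors came from edgeR 4.0.16 and DESeq2 1.42.0 in R 4.3.3. The counting was tested on simulated data. Promoter sequences came from RefSeq (GRCm38.p6), where 9 of 11 stefin genes had an entry, and gene models from GENCODE M21 (release 21 for mouse).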

Additional observations from a re-analysis of the deposited data

Results flagged for a closer look

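The heme to control ratios of whole cultures had opposite signs on day 7 and on days 4 and 5, and the difference between days was not tested, since each day is 1 culture per library. For Stfa2 the log2 ratio was -1.36 on day 4 and -0.78 on day 5, against 1.19 on day 7. For Stfa2l1 it was -0.48 on day 4, against 0.94 on day 7. Stfa3 stood at -0.97 and -0.47 on days 4 and 5, against 0.52 on day 7. BC100530 stood at -0.72 and -0.62, against 0.94. The 4 stefins summed stood at -0.77 and -0.56, against 0.93. Within S100a8/9-high cells the summed log2 ratio was -1.20, -1.23 and -1.80 on days 4, 5 and 7, with no change of sign.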

How the results depend on the processing

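No paired analysis was possible because each treatment is 1 library, and for the same reason no replicate could be left out. The summed log2 ratio of whole cultures on days 3, 4, 5 and 7 was -0.13, -0.77, -0.56 and 0.93. With all barcodes of 1 hashtag it was -0.74, -0.92, -1.39 and 0.31, with 500 or more genes as the one limit -0.74, -0.91, -1.39 and 0.32, with TMM factors -0.47, -1.06, -0.84 and 0.67, and with DESeq2 size factors -0.39, -1.02, -0.81 and 0.67. On days 4, 5 and 7 it was -0.88, -0.91 and 0.57 as a mean over cells, and -0.64, -0.43 and 1.06 divided by the day 3 ratio.

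The percentage of stefin UMIs in Camp-intermediate and Camp-high cells was 75.4% in the control library. It was 74.8% with all barcodes of 1 hashtag or with 500 or more genes, and 78.8% and 71.2% with Camp limits of 0.05% and 0.5% or 0.2% and 2%. In the heme library it was 46.4%, and 46.9% with 500 or more genes, 56.7% and 35.2% with these limits.

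The remaining alternatives were chosen after seeing the data, except those on counts of genes. In S100a8/9-high cells the log2 ratio was -0.40, -1.20, -1.23 and -1.80 on days 3, 4, 5 and 7. It was -0.74, -1.10, -1.30 and -1.89 with all barcodes of 1 hashtag. Without the 1% of cells with most stefin UMIs it was -1.35, -1.50 and -2.04 on days 4, 5 and 7. With a limit of 5% for S100a8 and S100a9 it was -1.23 and -2.40, and with 1% -1.16 and -1.62, on days 4 and 7. Of these cells 13.2% (control) and 9.25% (heme) were stefin-rich, 17.1% and 12.6% with a limit of 0.05%, and 9.80% and 6.68% with 0.2%.

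With DESeq2 size factors the stefins past 2-fold in either direction numbered 1, 2, 1 and 0 on days 3, 4, 5 and 7 of whole cultures. Without them the numbers were 0, 1 (Stfa2, lower), 0 and 1 (Stfa2, higher). The other stefins were 3 in place of 1 on day 5, and the cathepsins 0 in place of 1 on day 7. With no filter on low counts the other stefins past 2-fold were 2 in place of 0 on day 3 and 2 in place of 1 on day 7, and the cathepsins 2 in place of 1 on days 4 and 7. The shares of all genes past 2-fold under these settings are not given here, so these counts say nothing of the stefins in particular. Where a value moved, the cause was not tested. Over the log2 ratios of whole cultures, 99 of 108 alternative values kept their sign. The depth limits the day 0 values, where Stfa2 and Stfa3 had a handful of UMIs.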
